A study of Mus musculus with 6 samples.

Results

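The stefin A genes of the mouse were chosen by symbol from the table of gene-level expression, and 6 of the 7 symbols looked for were among its 26323 genes. These were Stfa1, Stfa2, Stfa2l1, Stfa3, Gm5483 and 2010005H15Rik. The symbol BC100530 matched no row and has no value here. The family was picked with its higher values in sorted cells already known, so the differences of its members between the groups, and the counts of members past a threshold, are given as a description and support nothing. RefSeq calls Gm5483 Cstdc4 and calls 2010005H15Rik Csta2, and the names of the gene table are kept below.

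Stefins are small inhibitors that stay inside the cell and belong to the cystatin superfamily. They plug the active site of papain-like cysteine proteases such as cathepsins B, H, L and S, and release it again. Humans have only CSTA, known from squamous epithelium and from white blood cells, while the mouse carries a tandem series of stefin A genes whose transcripts are known from bone marrow, neutrophils and skin.

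The arrays compared wild-type mouse embryonic fibroblasts (MEFs) that received no virus with cells sorted from MEFs transduced with lentiviruses for ERG, GATA2, LMO2, RUNX1c and SCL. CDH5+ cells were sorted after 8 days and c-KIT+ cells after 12 days, and the 3 groups had 2 Mouse Exon 1.0 ST arrays each. CDH5, or VE-cadherin, joins endothelial cells to each other, and c-KIT binds stem cell factor. Per the methods, MEFs were cleared of cells carrying CD41, CD31, c-KIT or CD45 before infection, and transduced cultures were moved to a medium with blood cytokines such as IL-3 and granulocyte-macrophage colony-stimulating factor. The sources used here do not say whether the untreated MEFs saw that medium, so the 5 factors, the medium, the time in culture and the sort cannot be told apart. The sorted cells are mixed populations, and in such bulk RNA fewer cells of a type and less RNA per cell cannot be told apart. The arrays are described as biological replicates, without word on how the cultures were kept apart.

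Values are the deposited log2 values, so a difference of 1 is a doubling. The sort could be read in the arrays. Cdh5 measured 5.26 and 5.01 in untreated MEFs, 10.16 and 10.95 in CDH5+ cells and 7.20 and 7.49 in c-KIT+ cells, and Kit 4.54 and 4.73, 6.98 and 7.30, and 8.19 and 8.33. Replicates correlated across genes at 0.907 (untreated MEFs), 0.944 (CDH5+) and 0.969 (c-KIT+). As a gauge of background, the 884 olfactory receptor genes had a 95th percentile between 5.90 and 6.04 on every array, and the highest gene value on an array lay between 12.85 and 13.14.

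Where the family sits and what stands before its genes are shown first, since the members share sequence and the arrays may not separate them. RefSeq places 12 protein-coding genes from Csta1 to Stfa3 on chromosome 16. In order they are Csta1, Stfa2l1, Gm5483, Gm5416, 2010005H15Rik, Stfa1, Cstdc3, Cstdc6, Cstdc5, Gm7260, Stfa2 and Stfa3. Gm7260 was taken in by its place alone, and 7 of the others, the 6 members and Gm5416, were in the gene table. All 6 members matched a RefSeq start site in build GRCm38.p6. The 100 bases before the start are printed 5′ to 3′ on the strand of the gene. For genes on the plus strand they are chr16:36277048-36277147 (Stfa1), chr16:36156711-36156810 (Stfa2l1), chr16:36184112-36184211 (Gm5483), chr16:36221462-36221561 (2010005H15Rik) and chr16:36210303-36210402 (Gm5416). For genes on the minus strand they are chr16:36408364-36408463 (Stfa2), chr16:36455393-36455492 (Stfa3) and chr16:36131190-36131289 (Csta1). Capitals mark a block and a purine run that recur in the family, both picked out after the sequences had been viewed.
Stfa1: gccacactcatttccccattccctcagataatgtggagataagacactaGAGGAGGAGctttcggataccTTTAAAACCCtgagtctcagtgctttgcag
Stfa2: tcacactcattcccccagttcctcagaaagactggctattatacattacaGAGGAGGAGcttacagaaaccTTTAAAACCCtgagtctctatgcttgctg
Stfa2l1: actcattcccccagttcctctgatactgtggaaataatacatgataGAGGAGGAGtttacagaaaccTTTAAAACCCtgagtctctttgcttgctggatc
Stfa3: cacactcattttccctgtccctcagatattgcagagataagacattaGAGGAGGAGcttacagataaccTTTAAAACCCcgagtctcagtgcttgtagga
Gm5483: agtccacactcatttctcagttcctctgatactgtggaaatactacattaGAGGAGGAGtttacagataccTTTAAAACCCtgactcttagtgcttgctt
2010005H15Rik: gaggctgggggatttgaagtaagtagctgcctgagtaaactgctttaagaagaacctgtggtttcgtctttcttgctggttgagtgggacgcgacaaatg
Gm5416: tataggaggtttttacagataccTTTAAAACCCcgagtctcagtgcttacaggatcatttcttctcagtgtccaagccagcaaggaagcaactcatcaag
Csta1: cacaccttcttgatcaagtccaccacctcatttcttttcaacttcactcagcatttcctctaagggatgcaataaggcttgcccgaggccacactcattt
The block TTTAAAACCC began 29 to 33 bases before the start of 5 members, and 2010005H15Rik was the member without it. It was found, on either strand, in the 250 bases before the start of 39 of 32851 RefSeq promoters, or 0.119%. Gm5416 carried it too, from 77 bases before its listed start, and Csta1 did not. The run GAGGAGGAG stood before the block in the same 5 members, and 2.75% of promoters held it.

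Identity in the 250 bases before the starts was counted over aligned bases only. In pairs the 5 members with the block were 72.8% to 92.3% identical, over 239 to 247 aligned bases. Stfa2 and Stfa2l1 were the closest pair, at 227 of 246 aligned bases. 2010005H15Rik was 56.5% to 66.1% identical to the 5 over 188 to 209 aligned bases, and Gm5416 78.0% to 89.6% over 200 to 205. The start that RefSeq gives 2010005H15Rik thus has a less similar sequence before it than those of the other members.

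Letters that the transduced kinds of factor are known to bind were searched on both strands of the same windows. The GATA letters AGATAA occurred in 2 of 6 members, Stfa1 and Stfa3, and in 9.99% of all promoters. The RUNX letters TGTGGT occurred in 6 of 6 members against 14.0% of promoters, the ETS letters AGGAAG in 3 of 6 against 29.5%, and the E-box CANCTG in 4 of 6 against 44.8%. The members share ancestry, so these are not separate occurrences, and in Stfa1, Stfa2 and Stfa2l1 the RUNX and E-box letters overlapped. A match of letters is a description and not a bound site.

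**Figure D1:**
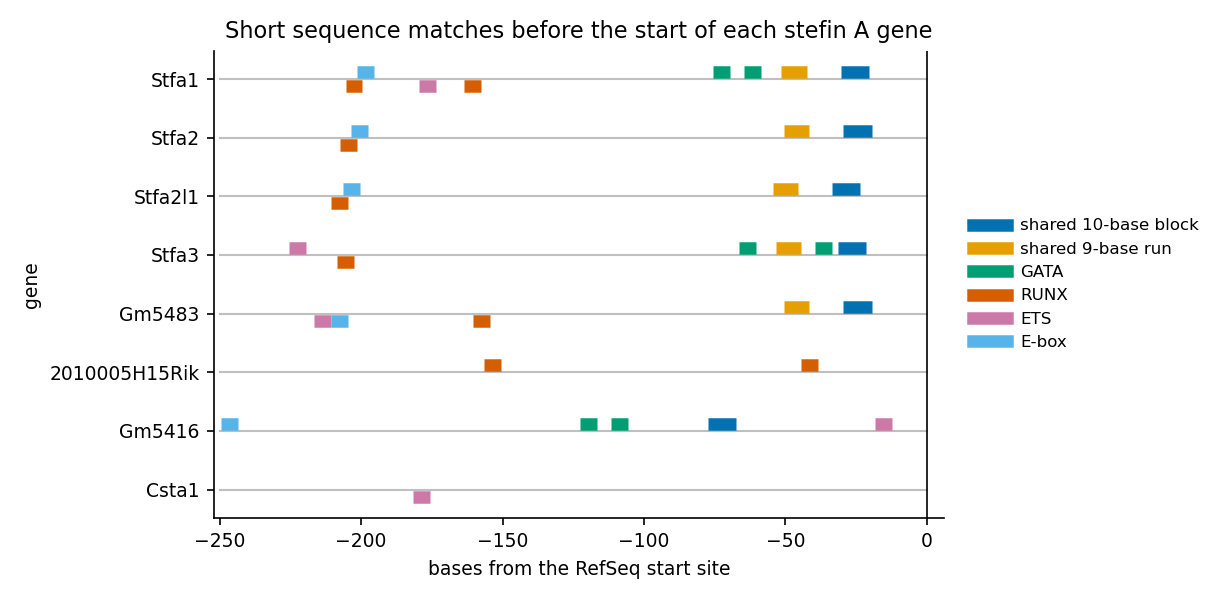
Matches of 6 short sequences in the 250 bases before the RefSeq start of each stefin A gene; the x axis gives bases from the start, bars above a line are on the strand of the gene and bars below it on the opposite strand. The 10-base block lies 29 to 33 bases before the start of 5 members and farther out in Gm5416, and 2010005H15Rik and Csta1 have none.

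The gene values of the stefin A members were at background in untreated MEFs and high in both sorted groups. All 6 members lay under the 95th percentile of olfactory receptor genes on both untreated arrays, between 1.28 and 3.31, and above it on all 4 arrays of sorted cells, between 6.21 and 11.36. On the untreated arrays 0.5% to 31.9% of olfactory receptor genes were lower than a given member. The untreated gene values thus could not be told from background, which limits the differences from them. Some probe sets outside the gene values read higher in untreated MEFs, and they are given with the other probe sets below.

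Stfa1 (ENSMUSG00000071562) is a stefin A whose gene lies in the middle of the series. It measured 3.31 and 2.67 in untreated MEFs, 9.95 and 10.52 in CDH5+ cells and 11.35 and 11.36 in c-KIT+ cells. The 3 groups did not overlap, and c-KIT+ cells were higher than CDH5+ cells on each array. The log2 difference from untreated MEFs was 7.25 in CDH5+ and 8.37 in c-KIT+ cells (standard error 0.31 for each).

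Stfa3 (ENSMUSG00000054905), the last gene of the series, measured 2.99 and 3.24 in untreated MEFs, 8.81 and 9.51 in CDH5+ cells and 10.38 and 10.43 in c-KIT+ cells. It too had no overlap between groups. Its differences from untreated MEFs were 6.05 and 7.29 (standard error 0.28). The annotation of the array does not separate Stfa1 from Stfa3, as set out below.

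Stfa2l1 (ENSMUSG00000059657), named for its likeness to Stfa2, measured 1.58 and 2.92 in untreated MEFs, 9.12 and 10.43 in CDH5+ cells and 10.94 and 10.64 in c-KIT+ cells. Its differences from untreated MEFs were 7.53 in CDH5+ and 8.54 in c-KIT+ cells (standard error 0.59). Leaving out an untreated array moved the latter to 7.87 or 9.21. The standard error was also the largest of the 6 members, since its replicates differed by more than 1 in untreated MEFs and in CDH5+ cells.

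Stfa2 (ENSMUSG00000022902) had the smallest differences of the 6 gene values, an order that depends on the probe sets behind them. It measured 1.86 and 2.94 in untreated MEFs, 6.21 and 7.18 in CDH5+ cells and 8.07 and 7.93 in c-KIT+ cells. On the first CDH5+ array the olfactory receptor 95th percentile was 6.02, so Stfa2 barely cleared background there. The differences were 4.29 and 5.60 (standard error 0.47).

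Gm5483 (ENSMUSG00000079597), a stefin A known from its sequence, measured 2.92 and 2.78 in untreated MEFs, 9.56 and 10.79 in CDH5+ cells and 10.65 and 10.28 in c-KIT+ cells. Both c-KIT+ values fell inside the span of the CDH5+ pair. The differences from untreated MEFs were 7.33 and 7.61 (standard error 0.42).

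2010005H15Rik (ENSMUSG00000095620), also a stefin A by sequence, measured 2.17 and 1.28 in untreated MEFs, 8.12 and 7.88 in CDH5+ cells and 9.72 and 9.60 in c-KIT+ cells. Its 3 groups did not overlap, and both sorted pairs were tight. Its differences from untreated MEFs were 6.27 and 7.93 (standard error 0.33).

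**Figure D2:**
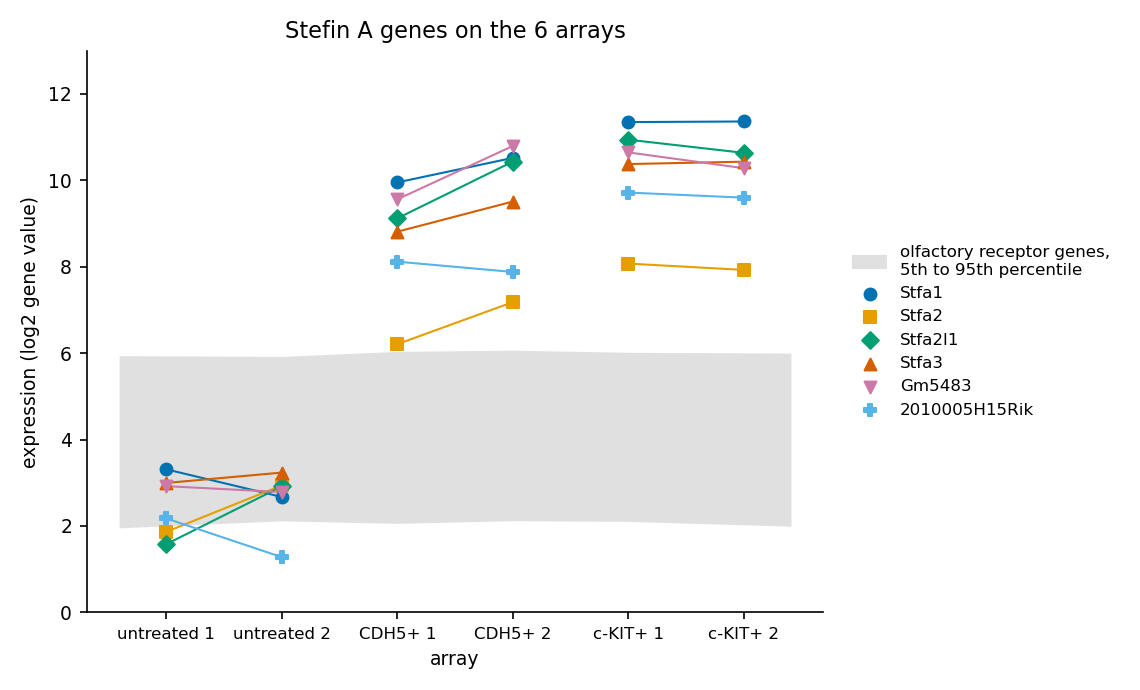
Log2 gene value of each of the 6 measured stefin A genes on the 6 arrays, with a line joining the 2 replicates of a group and the grey band giving the 5th to 95th percentile of 884 olfactory receptor genes on each array. Untreated values run from 1.28 to 3.31 and lie in or under the band, and all values of CDH5+ and c-KIT+ cells, 6.21 or more, lie above it.

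From untreated MEFs to CDH5+ cells all 6 members were higher at a Benjamini-Hochberg adjusted p under 0.05 in limma, as were 0.965% of the 26323 genes. From untreated MEFs to c-KIT+ cells all 6 were again higher, against 3.24% of genes. The arrays did not overlap for any member in either comparison, which held for 18.1% and 28.6% of genes. The family was chosen for these contrasts, so nothing is read from the counts. The calls over all genes, in either direction, hung on single arrays too, with 310 in CDH5+ cells but 67 without CDH5+ replicate 2 and 114 without either c-KIT+ array. In c-KIT+ cells they numbered 1570, but 148 and 170 without c-KIT+ replicate 1 or 2 and 3025 without untreated replicate 2. The median difference of the members was 6.76 in CDH5+ and 7.77 in c-KIT+ cells, beside -0.07 and 0.05 over all genes. Both comparisons use the same untreated arrays. Stfa2 was the member nearest the threshold. Its call in c-KIT+ cells was lost without c-KIT+ replicate 1, and its call in CDH5+ cells was lost without either c-KIT+ array, without CDH5+ replicate 2 or without untreated replicate 1. Stfa2l1 lost its call in CDH5+ cells without CDH5+ replicate 2.

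Between CDH5+ and c-KIT+ cells the members moved little beside the first difference. The difference was 0.29 for Gm5483, 1.01 for Stfa2l1, 1.12 for Stfa1, 1.24 for Stfa3, 1.31 for Stfa2 and 1.66 for 2010005H15Rik, with a median of 1.18 beside 0.10 over all genes. Leaving out a CDH5+ array moved the difference of Stfa2l1 to 0.36 or 1.67 and that of Stfa2 to 0.82 or 1.79, and with the median of probe sets with 1 gene that of 2010005H15Rik was 1.18, so the members cannot be ordered by it. Limma called 0 members here, as it called 0% of genes, also with an intensity trend or robust variances. At an unadjusted p under 0.05, 4 of the 6 were higher, as were 11.2% of genes. The c-KIT+ arrays lay above the CDH5+ arrays for 5 of the 6 members, Gm5483 being the exception, and for 36.6% of genes. For Gm5483 the difference turned to -0.33 without CDH5+ replicate 1 and to -0.05 after quantile normalization, so the order of its CDH5+ and c-KIT+ levels is not settled by these arrays.

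The CDH5+ pair differed in the family and in other genes together. Replicate 2 was higher than replicate 1 for 5 of 6 members, with a median difference of 0.84. The c-KIT+ pair differed by a median of -0.13 and the untreated pair by 0.05. On the CDH5+ pair 10 fibroblast markers were lower in replicate 2 by a median of 2.39, with 0 of 10 higher. On it 22 of 24 neutrophil markers and 9 of 10 endothelial markers were higher in replicate 2, by medians of 0.41 and 0.83. The 7 eosinophil markers were all higher, by a median of 1.29. The part of this make-up in the CDH5+ levels of the family was not tested. Shares over all genes were not counted for these differences between replicates, so nothing is read from the counts. From replicate 1 to 2 the fibroblast markers also differed in the untreated pair, by a median of -0.68, and in the c-KIT+ pair by 0.15. The widest gap in the untreated pair was in Lum, at 9.27 and 3.91.

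How far the arrays separate one stefin A gene from the next was read from the probe sets, the short stretches, mostly single exons, that each array value is made from. The deposited probe-set values and the annotation of the array list 30 probe sets for the 6 members, of which 20 are listed for 2 members at once. The 2 members in a shared listing were Stfa1 and Stfa3 (9 probe sets), 2010005H15Rik and Gm5483 (6), or Stfa2 and Stfa2l1 (5). Stfa1 and Stfa3 had no probe set of their own. RefSeq gives Stfa3 as an older name of Stfa1, so that for this pair a shared listing may reflect the name as much as the sequence, and which holds was not tested.

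Each gene value equalled the mean of a few probe sets to within 2e-05 on every array. For 4 members it was a single probe set. Stfa2l1, Gm5483 and 2010005H15Rik each rested on 1 probe set listed for them alone, Stfa1 on 1 listed for Stfa1 and Stfa3, Stfa2 on 2 of its own, and Stfa3 on 4 that were all listed for both Stfa1 and Stfa3. The gene values of Stfa1 and Stfa3 used no probe set in common, but by the annotation either could hold RNA of both genes. The 4 behind Stfa3 were 8.89, 8.84, 8.55 and 2.89 higher in c-KIT+ cells than untreated MEFs, so its gene value averages 3 large differences and a small one.

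Probe sets listed for 1 member differed widely. For 2010005H15Rik the probe set in the gene value was 7.93 higher in c-KIT+ cells than untreated MEFs, and the 3 others were 7.63, 1.77 and 1.03 higher. For Stfa2l1 the probe set in the gene value was 8.54 higher and the others 4.32 and 3.79. In both genes the gene value was thus the probe set with the largest c-KIT+ difference of those listed for the gene alone. Taken instead as the median of the probe sets with 1 listed gene, the c-KIT+ difference was 5.39 for 2010005H15Rik and 5.90 for Stfa2l1, and the CDH5+ difference 4.21 and 4.41. The 2 probe sets of Stfa2 were 6.46 and 4.74 higher in c-KIT+ cells, and the 1 of Gm5483 7.61.

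Probe sets listed for 2 members reached larger differences. Those of 2010005H15Rik with Gm5483 measured 1.16 to 6.39 on the untreated arrays, 11.59 to 12.72 on the CDH5+ arrays and 12.16 to 13.14 on the c-KIT+ arrays, and their c-KIT+ differences ran from 6.55 to 10.73. Those of Stfa1 with Stfa3 ran from 2.89 to 9.59, and those of Stfa2 with Stfa2l1 from 2.15 to 8.50. The low end in the latter pair was a probe set at 9.82 and 9.38 in untreated MEFs and at 11.72 and 11.78 in c-KIT+ cells. A probe set of Stfa1 with Stfa3 stood at 7.28 and 6.68 in untreated MEFs, and 1 of 2010005H15Rik with Gm5483 at 6.28 and 6.10. Neither these nor the first enter a gene value, and whether they read stefin A RNA in MEFs was not tested. The median c-KIT+ difference was 8.29 over the 20 shared probe sets and 5.60 over the 10 listed for 1 member.

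Probe sets of the family passed the test in limma in most cases. In CDH5+ cells 18 of the 20 shared and 5 of the 10 single probe sets were higher at an adjusted p under 0.05, beside 0.136% of all 1236087 probe sets. In c-KIT+ cells the counts were 19 of 20 and 7 of 10, beside 0.417%. The c-KIT+ arrays lay above the untreated arrays for all 30, and for 20.7% of all probe sets. These are the contrasts the family was chosen for and are given as a description. From CDH5+ to c-KIT+ cells all 30 differences were above 0 and limma called 0 of them. The shares over all probe sets were not counted for this comparison. The 30 also read only 6 genes on the same arrays, so nothing is read from their count. The differences ran from 0.34 to 0.44 in the probe sets of 2010005H15Rik with Gm5483, the brightest of the family. In those of 2010005H15Rik alone they ran from 0.76 to 1.66. Whether signal near the top of the scale narrowed the former was not tested.

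**Figure D3:**
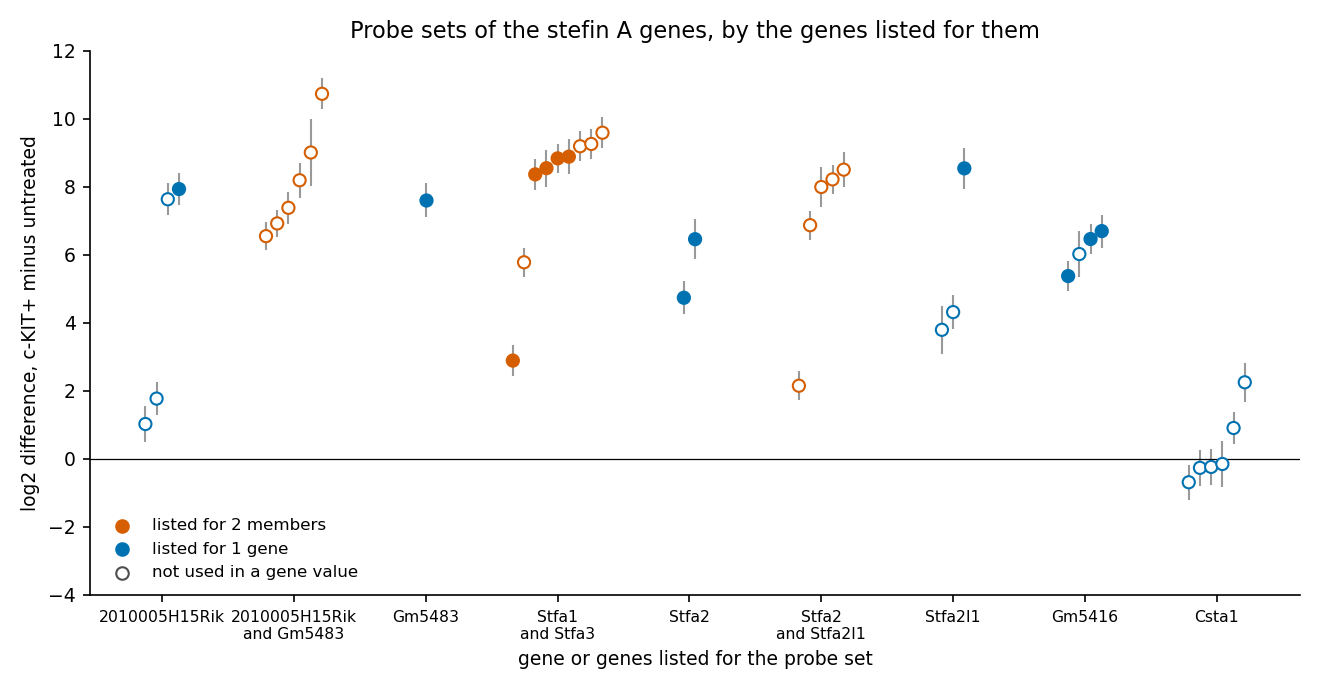
Log2 difference from untreated MEFs to c-KIT+ cells of each probe set listed for a stefin A gene, grouped by the gene or genes listed for it, with bars of 1 standard error from limma; filled points enter a deposited gene value and open points do not. The 20 probe sets listed for 2 members run from 2.15 to 10.73, the 10 listed for 1 member from 1.03 to 8.54, and the 6 of Csta1 from -0.69 to 2.25.

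The other stefin A genes of the array were not alike. Gm5416 (RefSeq Csta3), between Gm5483 and 2010005H15Rik in the series, measured 3.12 and 3.54 in untreated MEFs, 8.06 and 8.60 in CDH5+ cells and 9.57 and 9.44 in c-KIT+ cells. Against untreated MEFs it rose by 5.01 and 6.18 in the CDH5+ and c-KIT+ sorts (limma adjusted p = 0.00234 and 0.000785, standard error 0.28). All 4 of its probe sets are listed for it alone, and their c-KIT+ differences ran from 5.38 to 6.70, a narrower span than in the members. Gm5416 was taken up from the annotation of the family with results of these arrays known, so it is no independent support.

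Csta1, the first gene of the series, has 6 probe sets and no row in the gene table. Limma called 0 of the 6 in either comparison with untreated MEFs. The c-KIT+ arrays lay above the untreated arrays for 2 of them, and for 20.7% of all probe sets. In another the c-KIT+ arrays lay below the untreated arrays, with a difference of -0.69. The probe set with the largest difference measured 4.89 and 3.89 in untreated MEFs, 6.38 and 5.15 in CDH5+ cells and 6.97 and 6.31 in c-KIT+ cells. BC117090 measured 4.05 and 2.91, 2.89 and 3.80, and 4.50 and 5.75 in the same order of groups, and Gm4758 3.37 and 2.13, 3.57 and 2.85, and 2.60 and 3.28. Both stayed under the olfactory receptor 95th percentile on all 6 arrays and passed no test. The more distant relatives 8030411F24Rik, 9230104L09Rik and Gm5689 also passed none, with c-KIT+ differences of 0.41, -0.56 and -0.32.

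The genes on either side of the series did not follow it. Ccdc58, Fam162a and Wdr5b, beside Csta1, had c-KIT+ differences of 0.20, 0.28 and 0.20, and Casr, Cd86 and Ildr1, beside Stfa3, of 0.06, 0.35 and -0.10. None passed an adjusted p of 0.05 in any of the 3 comparisons. Casr, the calcium-sensing receptor, Cd86, a costimulatory protein of antigen-presenting cells, and Ildr1 lay under the olfactory receptor 95th percentile on all 6 arrays.

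**Figure D4:**
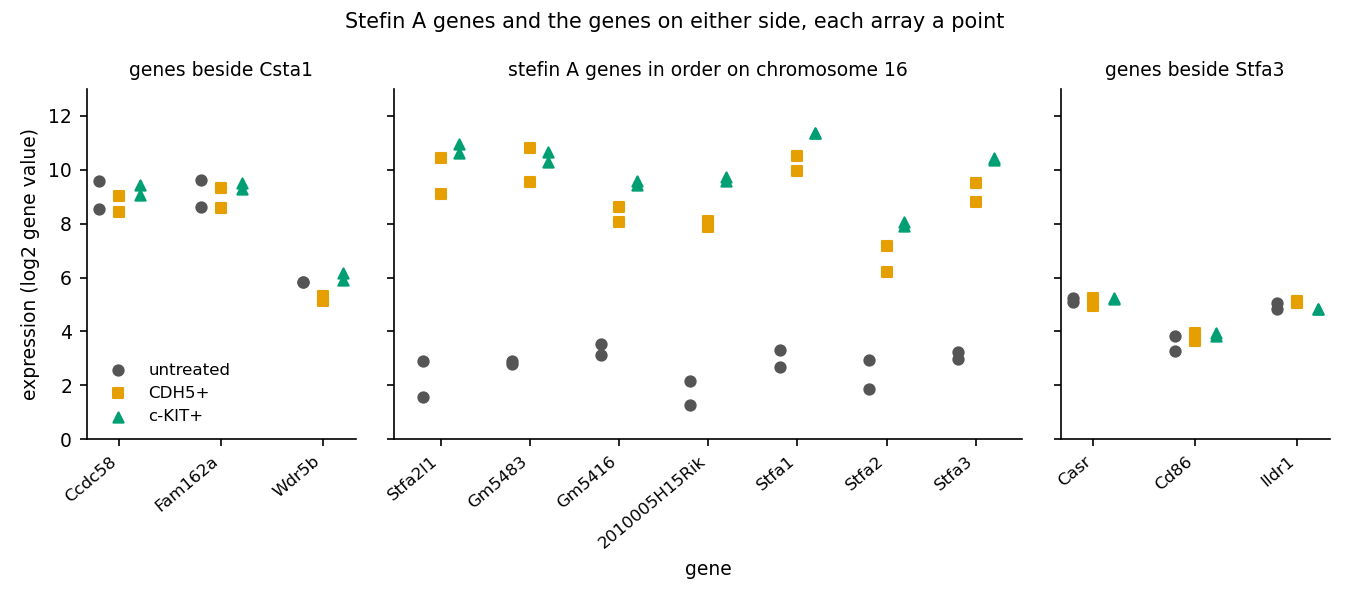
Log2 gene value on each array of the 7 stefin A genes in the gene table, in their RefSeq order on chromosome 16, with the 3 nearest measured genes beside Csta1 (in alphabetical order) and beside Stfa3. Each point is an array. The 7 stefin A genes lie between 1.28 and 3.54 in untreated MEFs and at 6.21 or above in the sorted cells, and none of the 6 flanking genes passed the test in any comparison.

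Among the 16 other cystatin genes measured, Cst7 was the only one that passed the test, called higher in both comparisons with untreated MEFs. Over all genes 0.965% were called higher in CDH5+ and 3.24% in c-KIT+ cells. Cst7, cystatin F, is an inhibitor made by blood cells that is delivered to their lysosomes and granules. It measured 4.95 and 4.70 in untreated MEFs, 8.90 and 8.77 in CDH5+ cells and 10.79 and 10.78 in c-KIT+ cells. It rose by 4.01 and 5.96 (standard error 0.20, limma adjusted p = 0.00165 and 0.00043), and kept its c-KIT+ call in every alternative run. From CDH5+ to c-KIT+ cells its difference was 1.95, with no overlap, and missed the test (limma adjusted p = 0.111).

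Cstb, stefin B, is the other stefin of the mouse and is made in most cell types. It measured 10.24 and 10.95 in untreated MEFs, 10.59 and 10.04 in CDH5+ cells and 10.70 and 10.73 in c-KIT+ cells. Its groups overlapped, and the c-KIT+ difference of 0.12 had a standard error of 0.32 (limma adjusted p = 0.878). Cst3, the secreted cystatin C, measured 9.36 and 8.77, 8.96 and 8.00, and 8.84 and 8.91, with a c-KIT+ difference of -0.20 (standard error 0.38, limma adjusted p = 0.830). The 16 cystatins had a median difference of 0.08 in CDH5+ and 0.05 in c-KIT+ cells, near the -0.07 and 0.05 of all genes.

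The cysteine proteases of the lysosome did not follow the family. They were listed as the cathepsins, among them those that stefins bind, and legumain, a protease of another fold that other cystatins inhibit. Of these 11 proteases, 0 were higher and 1 was lower in c-KIT+ cells than untreated MEFs at an adjusted p under 0.05, where 2.72% of genes were lower. In CDH5+ cells limma called 0 of the 11, where 0.213% of genes were lower, and 1 was lower at an unadjusted p under 0.05, as were 8.99% of genes. The median difference of the 11 was -0.18 in CDH5+ and -0.55 in c-KIT+ cells.

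The protease called lower in c-KIT+ cells was Ctsl, cathepsin L, a broad lysosomal protease. It measured 11.27 and 11.00 in untreated MEFs, 11.20 and 10.76 in CDH5+ cells and 9.61 and 9.80 in c-KIT+ cells. Its c-KIT+ level fell by 1.43 against untreated MEFs (standard error 0.24, limma adjusted p = 0.0305), and the c-KIT+ pair lay below all other arrays. The call was lost with the replicate number as a block (limma adjusted p = 0.0537), without either c-KIT+ array (0.227 and 0.183) and without untreated replicate 1 (0.0846), while the difference kept between -1.66 and -1.30. Ctsk, cathepsin K, a collagen-degrading protease, had a larger difference that missed the test. It measured 8.57 and 8.98 in untreated MEFs, 8.05 and 5.89 in CDH5+ cells and 6.11 and 5.94 in c-KIT+ cells, a c-KIT+ difference of -2.74 (standard error 0.67, limma adjusted p = 0.0797). It was called with the filter on dim genes (0.0456) and without either CDH5+ array (0.0133). Without untreated replicate 2, limma also called Ctsc, cathepsin C, which activates the granule serine proteases of myeloid cells, higher by 1.98, and Ctss and Lgmn lower by differences of -1.19 and -2.36.

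Ctsb, cathepsin B, stayed high in all groups. It measured 11.10 and 10.44 in untreated MEFs, 11.24 and 10.84 in CDH5+ cells and 10.27 and 10.36 in c-KIT+ cells, a c-KIT+ difference of -0.45 (standard error 0.29, limma adjusted p = 0.455). Ctss, cathepsin S of antigen-presenting cells, lay between 4.40 and 5.79 on all 6 arrays, under the olfactory receptor 95th percentile. The 8 placental cathepsins of the mouse lay under it on all arrays too, and limma called 0 of them in any comparison, with 0 at an unadjusted p under 0.05.

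**Figure D5:**
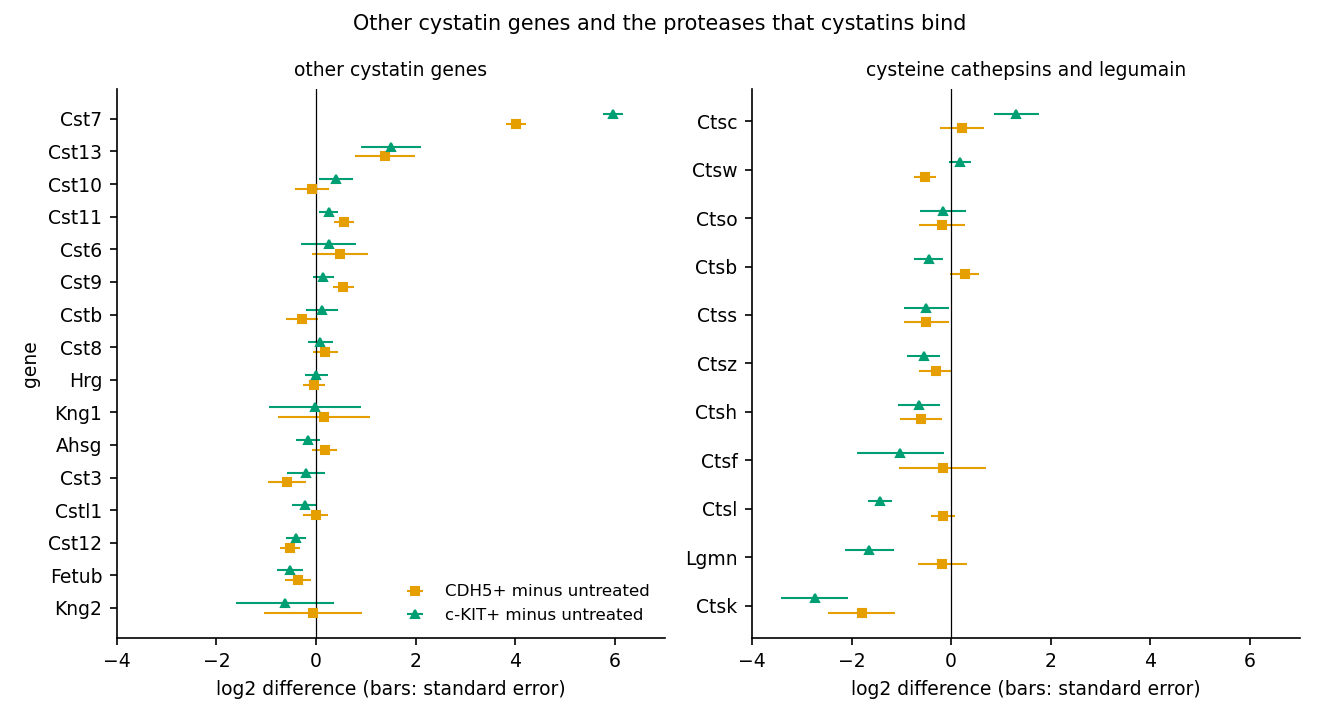
Log2 difference from untreated MEFs of 16 other cystatin genes (left) and of 11 proteases, the cysteine cathepsins and legumain (right), in CDH5+ cells (squares) and c-KIT+ cells (triangles), with bars of 1 standard error from limma. Cst7 stands at 4.01 and 5.96 and the other cystatins between -0.62 and 1.51, and the proteases run from -2.74 for Ctsk to 1.31 for Ctsc in c-KIT+ cells.

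Stefin A transcripts are known from more than 1 kind of cell, so markers of those kinds are given beside them. Beyond the leading genes of each list, those named at low or unmoved levels were chosen after their values were seen. Of 24 neutrophil lineage markers, 15 were higher in CDH5+ and 19 in c-KIT+ cells than untreated MEFs at an adjusted p under 0.05, and 0 were lower. Over all genes the shares were 0.965% and 3.24% higher and 0.213% and 2.72% lower, and the counts of the marker lists that follow stand against these. The neutrophil medians were 3.07 and 4.38, and the log2 of their summed level was 9.08 to 9.31 on untreated, 13.65 to 14.09 on CDH5+ and 14.64 to 14.65 on c-KIT+ arrays. S100a8 and S100a9, the subunits of calprotectin, rose by 7.95 and 7.66 in c-KIT+ cells (limma adjusted p = 0.00043 and 0.000465). Not all of the list was high. Padi4 and Csf3r, the G-CSF receptor, lay under the olfactory receptor 95th percentile on every array, with Csf3r at 5.32 and 5.48 in c-KIT+ cells.

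Of 12 mast cell and basophil markers, 4 were called higher in CDH5+ and 6 in c-KIT+ cells. Mcpt8, a basophil protease, and Cpa3, carboxypeptidase A3, rose by 7.30 and 6.39 in c-KIT+ cells (limma adjusted p = 0.00043 and 0.000751), while Fcer1a and Tpsb2 stayed at background on all arrays. Of 7 eosinophil markers, 1 was called higher in CDH5+ and 5 in c-KIT+ cells, with list medians of 2.33 and 5.37. The CDH5+ arrays lay above the untreated arrays for 6 of the 7, and for 18.1% of genes. Prg2, the major basic protein, and Ear6, an eosinophil ribonuclease, rose by 7.04 and 6.40 in c-KIT+ cells (limma adjusted p = 0.00161 and 0.00359). Il5ra and Ccr3, also of this list, stayed at background on all arrays. Their c-KIT+ differences were 0.01 and 1.11, and neither passed the test in either comparison with untreated MEFs.

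Of 12 macrophage markers, 0 passed the test in CDH5+ cells and 4, Lyz2, Cd14, Cd68 and Emr1, were called higher in c-KIT+ cells. Lyz2, Cd14 and Cd68 were also higher in CDH5+ cells, by 4.54, 2.38 and 1.36, but missed the test (limma adjusted p = 0.066, 0.0984 and 0.0525). The CDH5+ arrays lay above the untreated arrays for 6 of the 12, with a list median of 0.23, and for 18.1% of genes. Lyz2, a lysozyme shared with neutrophils, and Cd14 rose by 4.85 and 2.97 in c-KIT+ cells (limma adjusted p = 0.0232 and 0.0246), while Csf1r, C1qc and Marco had c-KIT+ differences of 0.10, -0.01 and 0.00. Of 13 squamous epithelium markers, 1 was called higher in each comparison with untreated MEFs. It was Tgm1, a transglutaminase of the cornified envelope, at 2.96 in c-KIT+ cells (limma adjusted p = 0.00336), and Ivl, involucrin, had a difference of 1.59 (limma adjusted p = 0.0894). Krt5, Krt14, Krt1, Krt10 and Trp63, which define that epithelium, had c-KIT+ differences of 0.26, 0.13, 0.10, -0.22 and -0.34 and passed no test.

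Of 10 fibroblast markers, 4, Col1a1, Col1a2, Fbn1 and Postn, were called lower in c-KIT+ cells and 0 passed the test in CDH5+ cells. Postn and Fbn1, both matrix genes, fell by 4.79 and 3.61 in c-KIT+ cells (limma adjusted p = 0.0389 and 0.0487). Of 10 endothelial markers, 7 were called higher in CDH5+ cells and 2, Pecam1 and Cdh5, in c-KIT+ cells, by 3.82 and 2.21 there (limma adjusted p = 0.0102 and 0.0187). The stefin A genes thus stood high in a sort with endothelial transcripts. That sort also held transcripts of the neutrophil list, of the mast cell and basophil list and, with 1 of 7 markers called, of the eosinophil list. On the CDH5+ arrays Col1a1 still measured 9.66 and 7.85, Lyz2 10.76 and 11.11, and the globin Hbb-y 11.09 and 11.66. The part of each kind of cell in the stefin A levels was not tested.

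The genes most like each member were sought among the 26323 genes, leaving out the 6 members, Gm5416, BC117090 and Gm4758 as the family. They were those with the smallest root mean square difference over the 6 arrays after each gene was centred on its mean. The 3 nearest per member gave 18 pairs of 11 different genes, at root mean square differences of 0.18 to 0.58. The points are 6 arrays in 3 pairs, and many genes share such a course, so the order among near genes is loose.

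For Stfa3 the nearest were Ctsg, cathepsin G, a serine protease of neutrophil granules, at 0.18, Ms4a3 at 0.24 and Gzmb, granzyme B, at 0.26. For 2010005H15Rik they were Gzmb at 0.25, Ctsg at 0.47 and Ly6g at 0.48. For Stfa1 they were S100a8 at 0.31, Hbb-y, an embryonic globin, at 0.40 and Gzmb at 0.43. Gzmb was near 3 members, and measured 3.93 and 3.52 in untreated MEFs, 9.82 and 10.13 in CDH5+ cells and 11.39 and 11.34 in c-KIT+ cells.

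For Gm5483 the nearest were Hbb-y at 0.25, Ngp, neutrophilic granule protein, at 0.31 and S100a8 at 0.35. For Stfa2l1 they were S100a9 at 0.52, Hbb-y at 0.54 and Ngp at 0.58. For Stfa2 they were Atp8b4 at 0.29, Gpr97 at 0.30 and Ctse, the aspartic protease cathepsin E, at 0.30. Gm5483 and Stfa2l1 lay nearest genes that had reached most of their c-KIT+ level in CDH5+ cells, as Hbb-y with 3.82 and 3.95, 11.09 and 11.66, and 11.70 and 11.70 in the 3 groups. This was not particular to them. S100a8 and Hbb-y were near Stfa1 too, and Ctsg, nearest Stfa3, was 6.37 higher in CDH5+ and 7.42 higher in c-KIT+ cells than untreated MEFs. The nearest gene of the family itself lay at 0.38 to 0.58 from a member.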

How the data were processed

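RNA of 6 samples was measured on Mouse Exon 1.0 ST arrays, 1 array a sample. The authors deposited log2 values per Ensembl gene and, for the same arrays, log2 values per probe set. Their background correction, normalization, software and genome build were not given in the sources used here. Neither table holds the authors' comparisons, and 0 value columns lacked a sample. Of 1236087 probe sets, the platform annotation gives 321091 a single gene, 7796 several and 907200 none.

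Differences were fitted with limma 3.58.1 in R 4.3.3 (lmFit and eBayes, all 6 arrays, 3 group means, 3 residual degrees of freedom), and p-values were adjusted by Benjamini-Hochberg over all 26323 genes, or over all probe sets. The script was tested on simulated data. The number of arrays limits the precision, and p-values measure only the spread between these samples. A level near background understates a log2 difference.

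The family members and all gene lists were chosen with earlier results of these data known. Named were every family gene measured, cathepsins and cystatins past an adjusted p of 0.05 with Cstb, Cst3, Ctsb, Ctsl and Ctss, the 2 marker genes of each list with the largest c-KIT+ difference, Cdh5, Kit, and the 3 genes nearest each member. Others were chosen after their values were seen. Upstream sequences are RefSeq's, build GRCm38.p6.

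Alternatives tried were a block on replicate number, leaving out each array, quantile normalization, median centring, a filter on dim genes (above the 95th olfactory receptor percentile on at least 2 arrays), an intensity trend, robust variances, and the median of a gene's probe sets with 1 gene.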

Additional observations from a re-analysis of the deposited data

How the results depend on the processing

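With 2 arrays a group, 1 array can decide a call, and a fit without an array assumes that the lone sample varies like the other groups. Under the alternatives 220 values of the members' differences kept their direction and moved by less than 1 SD between replicates of the groups compared, 2 turned and 6 moved further. The difference of Gm5483 between CDH5+ and c-KIT+ cells turned to -0.055 after quantile normalization and ran from -0.33 to 0.90 when an array was left out. With the median of probe sets with 1 gene, which measured 4 members and called all 4 in both comparisons with untreated MEFs, the differences in CDH5+ and c-KIT+ cells were 4.21 and 5.39 for 2010005H15Rik and 4.41 and 5.90 for Stfa2l1, the gene values of both resting on 1 probe set. The difference of 2010005H15Rik between CDH5+ and c-KIT+ cells was 1.18 there and 1.34 after quantile normalization, against 1.66.

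Leaving out an array gave 4 to 6 members called in CDH5+ cells and 5 to 6 in c-KIT+ cells, and 10 to 15 and 13 to 19 neutrophil markers. Of the proteases, 1 was called in c-KIT+ cells against untreated MEFs, 0 with the replicate block, 2 with the filter on dim genes (Ctsk in addition), and 0 to 4 when an array was left out. In CDH5+ cells 0 to 1 were called when an array was left out (Ctsk without CDH5+ replicate 1). With the filter on dim genes, which left 12630 genes to adjust over, 1 other cystatin, Cst7, was called from CDH5+ to c-KIT+ cells (limma adjusted p = 0.0474), among 26 genes in all against 0. That filter called 564 genes in CDH5+ cells against 310.

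The differences between replicates 2 and 1 correlated between groups at -0.05 to 0.12 over all genes. So weak a correlation cannot show whether arrays of the same replicate number shared a culture. With the replicate block limma called 6, 6 and 0 members in the 3 comparisons, and the calls over all genes in CDH5+ cells went from 310 to 198. Signal over background limits the untreated levels of all members.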
